A study of Mus musculus with 14 samples.

Results

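The genes described here were 10 members of the BCL2 family outside its core p53 targets Bax, Bbc3 and Pmaip1: Bcl2, Bcl2l1, Bcl2l2, Mcl1, Bcl2l11, Bak1, Bok, Bid, Bad and Bmf. They were chosen by gene symbol, and all 10 were counted, of 30503 genes in the count table, and passed the filter on low counts that left 17358 genes for testing. Bulk RNA-seq was performed on 14 cultured lines, each a clone grown from 1 tdTomato+ skeletal cell of the femoral bone marrow of mice given tamoxifen at P21. The 5 Fgfr3-WT clones carried Fgfr3-creER and the R26R(tdTomato/+) reporter and were isolated at P23 (passage 8). The 5 Fgfr3-p53 cKO clones isolated at P28 (passage 8) and the 4 from mice of 4 months (P4M, passages 6 to 8) carried Fgfr3-creER, Trp53fl/fl and the same reporter. Fgfr3-creER acts only in cells that express Fgfr3 when tamoxifen is given, so each clone descends from such a cell. The study gives the size of each group both as clones and as mice, the labels do not tie clones to mice, and p values measure the spread between clones.

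BCL2 family proteins control the permeability of the outer mitochondrial membrane. Effector proteins form pores through which cytochrome c leaves, anti-apoptotic proteins hold effectors and their activators in check, and BH3-only proteins carry death signals to both. Loss of p53 lowers several of the pro-apoptotic members that p53 itself switches on, chiefly Bax, Bbc3 (PUMA) and Pmaip1 (NOXA). The question here was how the remaining members were expressed in the clones without p53.

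All 10 members carry the short helix known as the BH3 domain, through which they bind each other. A relaxed pattern of that domain was searched in the reading frame of the principal transcript of each gene: leucine or methionine, 3 free codons, then glycine, alanine or serine and an aspartate, with a hydrophobic residue or alanine 4 codons before, an acidic residue, glycine or glutamine after the aspartate and a hydrophobic residue after that. The pattern was found once in each member and in 319 of 21899 protein-coding genes (1.46%), and since it was written from what is known of this family, its presence in the members is no finding. The windows of 30 bases below are from the GENCODE transcripts of release M21 on mm10. They show the core in some of the members called higher (Bok, Bak1, Bcl2l11, Mcl1) or lower (Bad, Bcl2l1). Bmf, which passed the test in no comparison, is shown too. Mcl1 was called in P4M only, and most fits with 1 clone left out lost that call. Capitals mark the 6 codons from the leucine or methionine to the aspartate.
Bok, chr1:93686651-93689167, plus strand, over an exon junction: acagtgCTGCTGCGCTTGGGAGATgagctg
Bak1, chr17:27022534-27022563, minus strand: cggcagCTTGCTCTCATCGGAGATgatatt
Bcl2l11, chr2:128147144-128147173, plus strand: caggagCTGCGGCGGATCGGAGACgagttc
Bad, chr19:6950786-6950815, plus strand: cgtgagCTCCGAAGGATGAGCGATgagttt
Bcl2l1, chr2:152829700-152829729, minus strand: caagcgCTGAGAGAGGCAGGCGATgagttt
Mcl1, chr3:95659430-95659459, plus strand: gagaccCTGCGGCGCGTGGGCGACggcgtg
Bmf, chr2:118545103-118545132, minus strand: agaaagCTTCAGTGTATTGCAGACcagttc
Over the 18 core bases, Bcl2l11 shared 14 with Mcl1, 13 with Bok and 9 with Bcl2l1. Bak1 and Bok shared 11.

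Trp53 was checked before the members. It was at 55.0 ± 7.68 CPM (counts scaled to a common library size with TMM factors, as edgeR computes CPM; n = 5, SD) in the Fgfr3-WT clones, 2.47 ± 0.243 CPM (n = 5, SD) in the P28 clones and 2.09 ± 0.278 CPM (n = 4, SD) in the P4M clones, with no overlap between genotypes. Total counts lay between 25688946 and 52857424 per clone. Of the 8 mesenchymal stromal markers examined, all were above 1 CPM in some Fgfr3-WT and some P28 clone, and Thy1 stayed under 1 CPM in the P4M clones. The summed level of the 8 was 494.5 to 4741 CPM in the Fgfr3-WT clones, 12292 to 22236 in P28 and 8776 to 33949 in P4M, most of it Col1a2. Of the 8, 0 were called in P28 against Fgfr3-WT by edgeR at an FDR of 0.05, beside 19.2% of all genes higher and 19.7% lower. In P4M 1 was higher and 1 lower, beside 22.3% and 23.6% of all genes. Of the 10 haematopoietic markers, 9 were in the count table. They summed to 16.4 to 145.1 CPM in the Fgfr3-WT clones and to at most 22.3 CPM in the cKO clones. Of these, only Cd68 and Lyz2 exceeded 1 CPM in any Fgfr3-WT clone, and only Cd68, Lyz2 and Csf1r in any cKO clone. Cd3e was not in the count table. Of the 4 erythroid markers, the 3 in the count table summed to at most 0.326 CPM. Of the 8 endothelial markers, the 7 in the count table summed to at most 8.53 CPM in the Fgfr3-WT and P28 clones. They reached 249.7 CPM in 1 P4M clone through Vwf (236.9 CPM). Cdh5 and Cldn5 were each at 0 in every clone or not in the count table. The part of these differences in the results was not tested, and in bulk RNA fewer cells of a kind and less RNA per cell cannot be told apart. The library names of all Fgfr3-WT clones carry the number 1303 and those of all cKO clones 2963, and the labels do not say what it marks. Genotype and whatever this number marks, such as a batch, cannot be told apart. Genotype is also tied to age at isolation, P23 for the Fgfr3-WT clones and P28 or 4 months for the cKO clones. The paper reports that cKO clones grew faster and survived more passages than wild-type clones. Equal passage numbers therefore do not mean equal time in culture. The part of age, time in culture and clone survival in the results was not tested.

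In the P28 clones, 3 of the 10 members were higher than in the Fgfr3-WT clones at an FDR of 0.05 (edgeR quasi-likelihood test, Benjamini-Hochberg adjustment over all genes tested) and 3 were lower, against 19.2% of all genes higher and 19.7% lower. In the P4M clones, 5 were higher and 3 lower, against 22.3% and 23.6% of all genes. With both cKO groups averaged, 5 were higher and 3 lower, against 23.1% and 25.7%. These comparisons share the Fgfr3-WT clones and are not independent. The median log2 fold change of the members was 0.30 in P28 and 0.63 in P4M, beside -0.02 and -0.06 over all genes tested. The effectors Bok and Bak1 rose in both ages, the anti-apoptotic Bcl2l1 and Bcl2l2 and the BH3-only gene Bad fell in both, and the other members were called at 1 age or at neither.

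**Figure D1:**
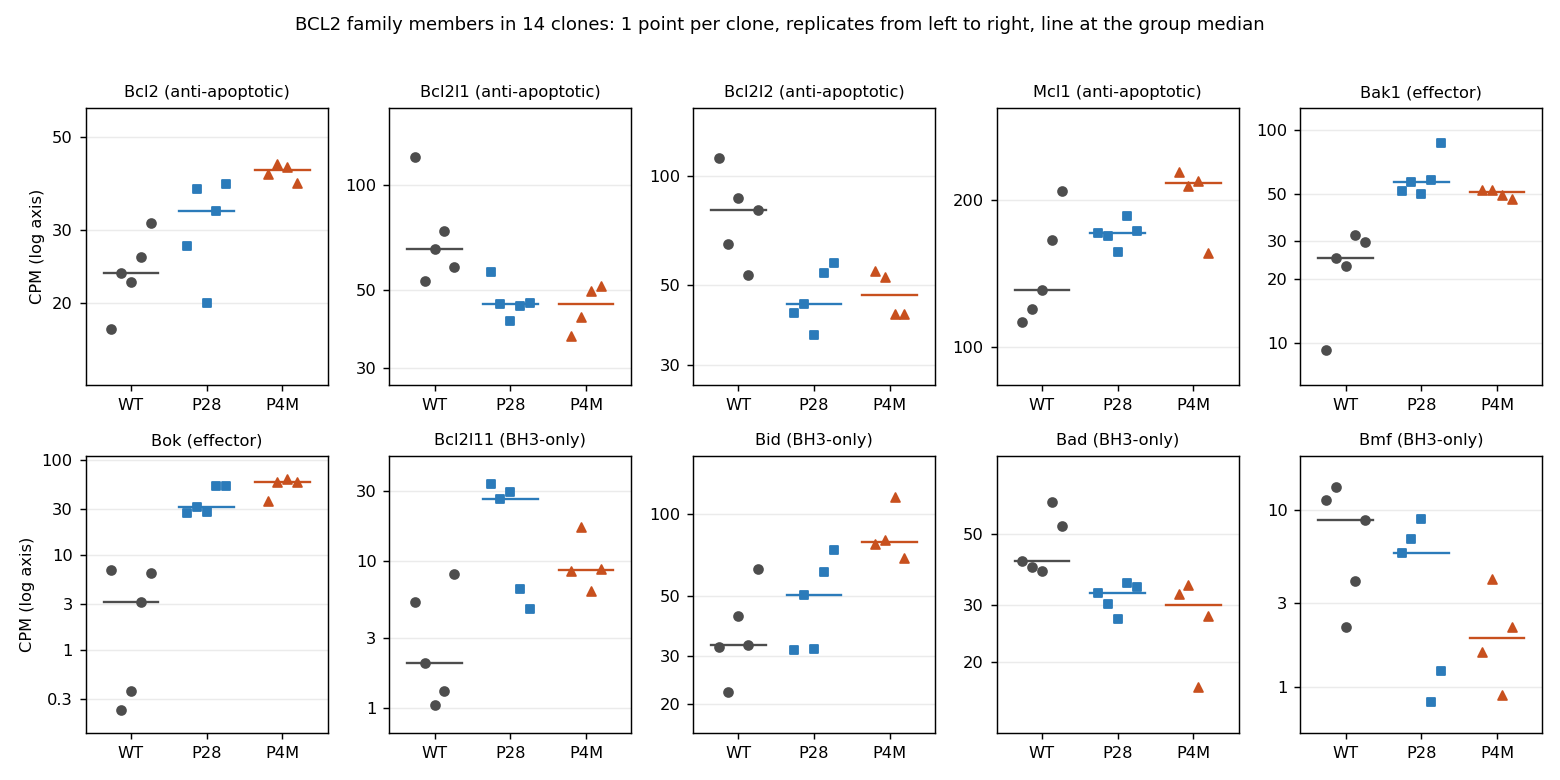
Level of the 10 members in each clone as CPM on a log axis, with 1 point per clone, replicates from left to right and a line at the group median. All cKO points of Bok and Bak1 lie above all Fgfr3-WT points, and all cKO points of Bad lie below them.

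Bok, a BAX-like effector that is kept low by degradation in many healthy cells, had the largest fold change of the members. It was at 6.84, 0.230, 0.364, 3.19 and 6.49 CPM in Fgfr3-WT replicates 1 to 5. It was at 27.7, 32.0, 28.4, 52.7 and 53.2 CPM in the P28 clones and at 36.7, 58.4, 63.6 and 58.3 CPM in the P4M clones. The lowest cKO clone (27.7 CPM) was above the highest Fgfr3-WT clone (6.84 CPM), and the Fgfr3-WT clones differed among themselves, with replicates 2 and 3 at 6 and 9 reads. Bok rose by 3.50 log2 units in P28 (SE 0.724, edgeR adjusted p = 0.00232) and by 3.98 in P4M (SE 0.754, edgeR adjusted p = 0.00106). The 95% confidence intervals of these changes were wide, from 1.94 to 5.06 and from 2.36 to 5.61. The gene (ENSMUSG00000026278) lies on chromosome 1 from 93685660 to 93695764.

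Bak1, the effector resident on mitochondria that can act in place of BAX, was at 9.25, 24.98, 22.9, 32.2 and 29.9 CPM in the Fgfr3-WT clones. It was at 51.4, 57.1, 49.8, 58.0 and 86.6 CPM in the P28 clones and at 52.4, 52.2, 49.6 and 47.5 CPM in the P4M clones. The groups of the 2 genotypes did not overlap, Fgfr3-WT replicate 1 was the lowest clone and P28 replicate 5 the highest. Bak1 rose by 1.34 log2 units in P28 (SE 0.269, edgeR adjusted p = 0.00183) and by 1.08 in P4M (SE 0.279, edgeR adjusted p = 0.00693). Bax, the p53-activated effector, moved the other way in the same clones, at -1.39 log2 units (SE 0.237, edgeR adjusted p = 0.000674) in P28 and -1.4996 (SE 0.256, edgeR adjusted p = 0.000521) in P4M. By TPM, which allows levels of different genes to be compared per length, Bax still exceeded Bak1 and Bok in every cKO clone: Bax was at 136 ± 32.5 TPM (n = 4, SD) in P4M, where Bok was at 65.9 ± 14.1 TPM and Bak1 at 35.6 ± 1.29 TPM. The ratio of Bok to Bak1 TPM was 0.0150 to 0.353 in Fgfr3-WT replicates 2 to 5, 1.36 in Fgfr3-WT replicate 1, 0.934 to 1.54 in P28 and 1.22 to 2.19 in P4M.

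Among the anti-apoptotic members, Bcl2l1 (BCL-XL) was at 120.3, 53.3, 65.6, 73.9 and 58.2 CPM in the Fgfr3-WT clones. It was at 56.4, 45.5, 40.7, 45.1 and 46.0 CPM in the P28 clones and at 36.8, 41.9, 49.7 and 51.5 CPM in the P4M clones. P28 replicate 1 was the only cKO clone above the lowest Fgfr3-WT clone, and Fgfr3-WT replicate 1 stood well above the rest. Bcl2l1 fell by 0.67 log2 units in P28 (SE 0.203, edgeR adjusted p = 0.0192) and by 0.72 in P4M (SE 0.217, edgeR adjusted p = 0.0153).

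Bcl2l2 (BCL-W) was at 111.6, 64.8, 86.9, 53.01 and 80.6 CPM in the Fgfr3-WT clones. It was at 41.8, 44.2, 36.3, 53.9 and 57.3 CPM in the P28 clones and at 54.6, 52.3, 41.4 and 41.3 CPM in the P4M clones. The ranges overlapped only at Fgfr3-WT replicate 4, which lay below 2 P28 clones and 1 P4M clone. Bcl2l2 fell by 0.77 log2 units in P28 (SE 0.196, edgeR adjusted p = 0.00780) and by 0.74 in P4M (SE 0.210, edgeR adjusted p = 0.0110). Of its annotated exon bases, 13.3% are shared with Gm20521 on the same strand, a gene with 460 reads in all clones together.

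Bcl2, the founding member, went in the opposite direction. It was at 17.3, 23.6, 22.5, 25.8 and 31.1 CPM in the Fgfr3-WT clones, at 27.4, 37.5, 20.1, 33.3 and 38.6 CPM in the P28 clones and at 40.7, 43.0, 42.5 and 38.9 CPM in the P4M clones. All P4M clones exceeded all Fgfr3-WT clones, whereas the P28 clones overlapped the Fgfr3-WT clones and stayed just below the lowest P4M clone (38.6 against 38.9 CPM). In TPM, P28 and P4M overlapped, with 5.11 to 9.88 in P28 and 8.61 to 8.98 in P4M. The log2 fold change was 0.78 in P4M (SE 0.197, edgeR adjusted p = 0.00613) and 0.38 in P28 (SE 0.187, edgeR adjusted p = 0.121), where Bcl2 passed the threshold without P28 replicate 3 (0.49, edgeR adjusted p = 0.0383).

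Mcl1, a short-lived anti-apoptotic protein that binds BIM and BAK, was at 112.8, 119.7, 130.8, 165.6 and 208.6 CPM in the Fgfr3-WT clones. It was at 171.3, 169.2, 157.1, 186.1 and 172.8 CPM in the P28 clones and at 229.0, 214.2, 219.5 and 156.4 CPM in the P4M clones. Both cKO groups lay within or above the Fgfr3-WT range, with Fgfr3-WT replicate 4 inside the P28 range and replicates 4 and 5 inside the P4M range. The log2 fold change was 0.22 in P28 (SE 0.170, edgeR adjusted p = 0.336) and 0.47 in P4M (SE 0.179, edgeR adjusted p = 0.0445). Leaving out 1 clone at a time ended the P4M call in 11 of 14 fits, with adjusted p values from 0.0514 without P28 replicate 4 to 0.107 without P4M replicate 1 (edgeR), and it was kept only without Fgfr3-WT replicate 4 or 5 or P4M replicate 4. With both cKO groups averaged Mcl1 was not called (0.34, edgeR adjusted p = 0.0759). It passed the threshold without Fgfr3-WT replicate 5 (adjusted p = 0.00833) or P4M replicate 4 (adjusted p = 0.0407), without composition scaling (0.41, adjusted p = 0.0345) and by limma on TPM (0.55, adjusted p = 0.00548).

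**Figure D2:**
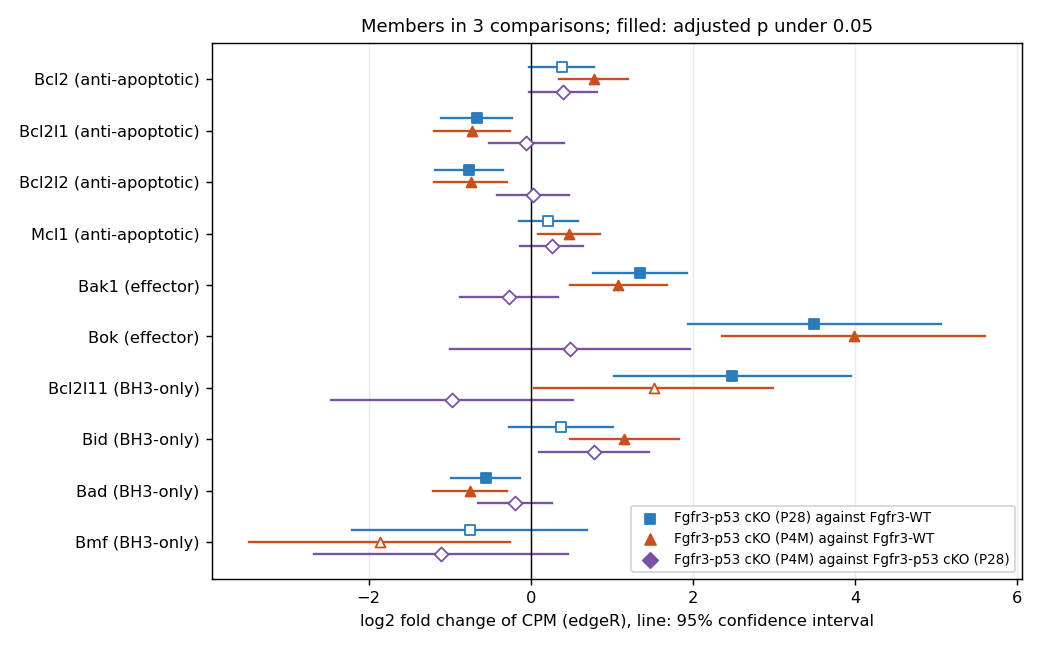
Log2 fold change of the 10 members in 3 comparisons, with 95% confidence intervals as lines and filled symbols where the adjusted p was under 0.05. Bok has the highest values against Fgfr3-WT (3.50 and 3.98), Bcl2l1, Bcl2l2 and Bad lie below 0 in both cKO groups, and no symbol of P4M against P28 is filled.

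The share of each of these 4 genes in their summed TPM was computed per clone as a description. The sum was 153 ± 30.9 TPM (n = 5, SD) in the Fgfr3-WT clones, 161 ± 14.001 TPM (n = 5, SD) in P28 and 155 ± 13.3 TPM (n = 4, SD) in P4M, so the groups overlapped in total. Mcl1 held 25.9, 42.1, 38.5, 47.1 and 52.2% of it in the Fgfr3-WT clones, 52.4 to 57.3% in P28 and 51.8 to 61.6% in P4M. Bcl2l1 held 31.0 ± 7.12% in the Fgfr3-WT clones, 23.2 ± 2.64% in P28 and 20.6 ± 4.76% in P4M, and Bcl2l2 held 24.5 ± 5.002%, 17.4 ± 1.90% and 15.0 ± 2.08% (SD, n = 5, 5 and 4). Bcl2 remained the smallest, at 3.38 ± 0.882%, 4.85 ± 1.01% and 5.69 ± 0.438%. The Fgfr3-WT clones were the more varied, from replicate 1, in which Bcl2l1 was the most abundant of the 4, to replicate 5, whose Mcl1 share was close to that of the lowest P28 clones.

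**Figure D3:**
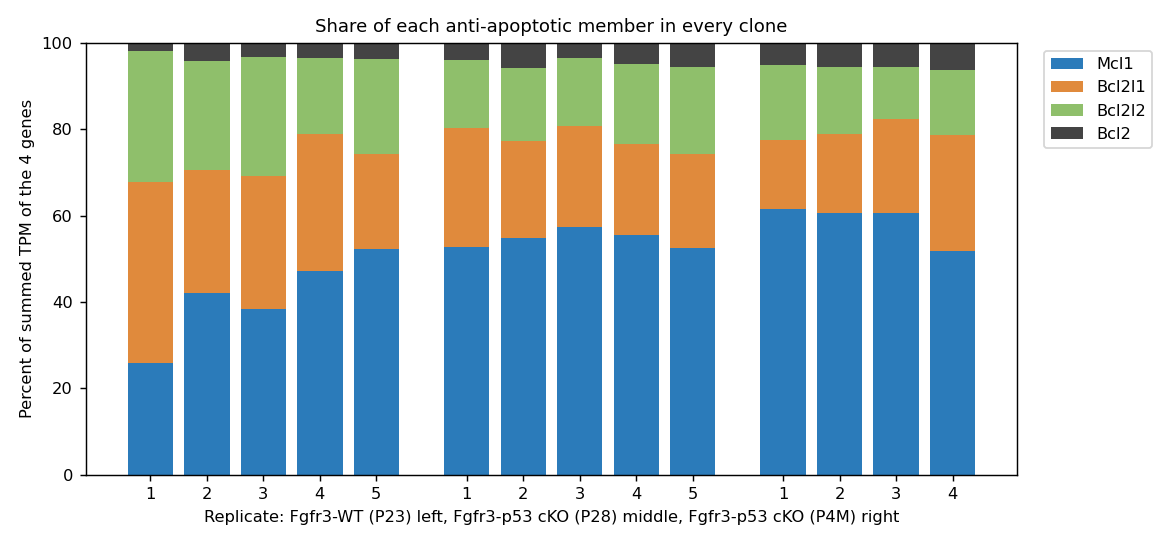
Share of Mcl1, Bcl2l1, Bcl2l2 and Bcl2 in their summed TPM, with 1 stacked bar per clone that adds up to 100%. Mcl1 held 25.9 to 52.2% in the Fgfr3-WT clones and 51.8 to 61.6% in the cKO clones.

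Of the BH3-only members, Bcl2l11 encodes BIM, which binds all anti-apoptotic members and also activates the effectors. It was at 5.25, 2.03, 1.05, 1.31 and 8.19 CPM in the Fgfr3-WT clones, at 33.3, 26.2, 29.3, 6.49 and 4.74 CPM in the P28 clones and at 8.61, 17.0, 6.26 and 8.83 CPM in the P4M clones. P28 replicates 1 to 3 stood above every other clone, and replicates 4 and 5 lay within the Fgfr3-WT range. Bcl2l11 rose by 2.49 log2 units in P28 (SE 0.677, edgeR adjusted p = 0.0111). In P4M the log2 fold change was 1.51 (SE 0.684, edgeR adjusted p = 0.0855), and it passed the threshold without Fgfr3-WT replicate 5 (2.08, edgeR adjusted p = 0.0268).

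Bmf, a BH3-only gene whose product is held at the actin cytoskeleton, was at 11.5, 13.5, 2.18, 3.98 and 8.79 CPM in the Fgfr3-WT clones. It was at 5.74, 6.91, 8.96, 0.826 and 1.23 CPM in the P28 clones and at 1.59, 4.07, 0.909 and 2.20 CPM in the P4M clones. The 3 P28 clones with high Bcl2l11 were also those with high Bmf, and all groups overlapped. The log2 fold change was -0.75 in P28 (SE 0.672, edgeR adjusted p = 0.398) and -1.86 in P4M (SE 0.749, edgeR adjusted p = 0.0563). The P4M difference passed the threshold without Fgfr3-WT replicate 3 (adjusted p = 0.0347), P28 replicate 4 (0.0361), P28 replicate 5 (0.0459) or P4M replicate 2 (0.0432), with DESeq2 (0.0215), with only the compared groups fitted (0.0383) and with at least 10 counts in every clone (0.0478). With both cKO groups averaged it was -1.31 (edgeR adjusted p = 0.0759), and it passed without Fgfr3-WT replicate 3 (0.0426) or P28 replicate 3 (0.0489).

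The levels of Bcl2l11 and Bmf, a pair chosen after their values were seen, are set side by side as a description. The ratio of Bcl2l11 to Bmf TPM was 0.481, 0.158, 0.684, 0.322 and 1.29 in the Fgfr3-WT clones. It was 5.65, 4.27, 3.54, 6.74 and 3.07 in the P28 clones and 6.63, 4.97, 5.10 and 4.72 in the P4M clones. No Fgfr3-WT clone reached the lowest cKO ratio, although the Bcl2l11 level itself ranged from 2.09 to 12.8 TPM over the P28 clones. No test was made on the ratio.

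**Figure D4:**
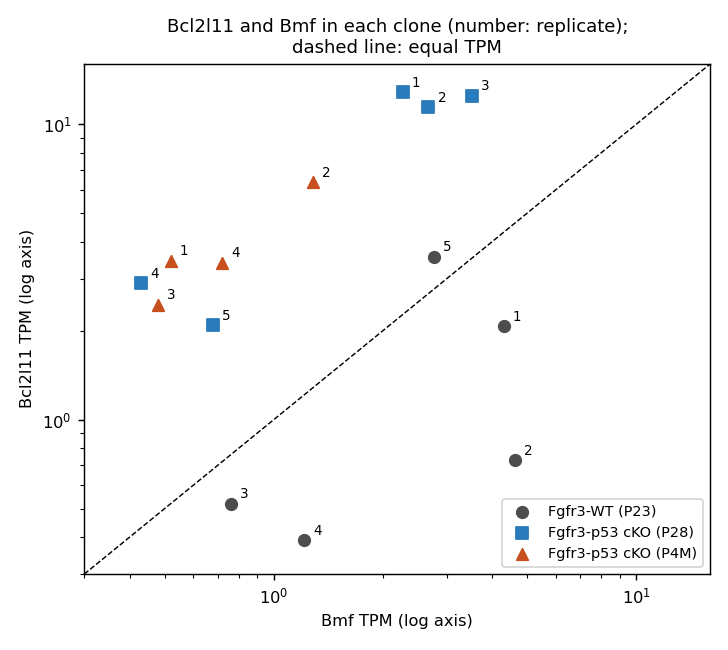
Bcl2l11 against Bmf in each clone as TPM on log axes, numbered by replicate, with the dashed line at equal TPM. All 9 cKO clones lie above the line at ratios of 3.07 to 6.74, and 4 of the 5 Fgfr3-WT clones lie below it.

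Bid, which caspase-8 cleaves to carry the death receptor signal to mitochondria, was at 32.4, 22.1, 42.3, 32.9 and 62.9 CPM in the Fgfr3-WT clones. It was at 31.7, 50.3, 31.9, 61.5 and 74.2 CPM in the P28 clones and at 77.8, 80.3, 116.2 and 68.9 CPM in the P4M clones. Every P4M clone exceeded every Fgfr3-WT clone, and the P28 clones spread over the range of both. Bid rose by 1.16 log2 units in P4M (SE 0.315, edgeR adjusted p = 0.00926). In P28 the log2 fold change was 0.37 (SE 0.298, edgeR adjusted p = 0.341). Averaged over the cKO groups it rose by 0.76 (edgeR adjusted p = 0.0315), a call that was lost without Fgfr3-WT replicate 1 (0.0711), 2 (0.0805) or 4 (0.0721), P28 replicate 4 (0.0532) or 5 (0.0517), or P4M replicate 3 (0.0565). Of the exon bases of Bid, 17.7% are shared with Bcl2l13 on the opposite strand. The SMART-Seq v4 kit named in the labels does not mark strand, so reads from the shared bases cannot be assigned to either gene. The paper states that only reads mapped without ambiguity were counted. Bcl2l13 was itself higher (0.77 averaged over the cKO groups, SE 0.207, edgeR adjusted p = 0.00777), and the part of the overlap in the level of Bid was not tested.

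Bad, which sets BCL-XL, BCL2 and BCL-W free of their partners when it is not phosphorylated, was at 41.3, 39.4, 38.3, 63.1 and 53.2 CPM in the Fgfr3-WT clones. It was at 32.9, 30.3, 27.2, 35.2 and 34.4 CPM in the P28 clones and at 32.5, 34.7, 16.7 and 27.9 CPM in the P4M clones. In CPM the genotypes did not overlap, and P4M replicate 3 was the lowest. In TPM they overlapped, with 67.59 to 100.15 in the Fgfr3-WT clones, 65.1 to 80.59 in P28 and 33.74 to 70.24 in P4M. Bad fell by 0.56 log2 units in P28 (SE 0.199, edgeR adjusted p = 0.0396) and by 0.75 in P4M (SE 0.213, edgeR adjusted p = 0.0113). The P28 call was lost without Fgfr3-WT replicate 4 (adjusted p = 0.103) or 5 (0.0744), P28 replicate 1 (0.0555), 2 (0.0665) or 3 (0.0757), or P4M replicate 4 (0.0521), all by edgeR. Of the exon bases of Bad, 20.5% are shared with Gpr137 on the opposite strand, which fell by 1.75 log2 units averaged over the cKO groups (SE 0.154, edgeR adjusted p = 4.40e-06). The counting rule given for Bid applies here too, and the part of this overlap was not tested. For Bak1, the annotation has 2 gene models named Ggnbp1 on the opposite strand, which cover 18.2% and 7.35% of its exon bases.

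The position of the members gave a further description. For each clone, the median over the genes of a chromosome of the difference in log2 CPM from the average Fgfr3-WT clone was taken (for an Fgfr3-WT clone, from the average of the others), less the same median over all autosomes, using genes whose log2 CPM averaged 3 or more. Genes of chromosome 19, where Bad lies from 6941861 to 6951899, had a median of -0.64 in P4M replicate 3, the clone with the least Bad, and between -0.33 and 0.14 in the other 8 cKO clones. Bad itself was at -1.58 in that clone on the same scale. Chromosome 6, which holds Bid (120891930 to 120916853), had medians of -0.28 to -0.21 in the cKO clones, while Bid was at -0.24 to 1.56. The lowest values of Bid were those of P28 replicates 1 (-0.24) and 3 (-0.21), where the chromosome was at -0.22 and -0.27. Chromosome 14, which holds Bcl2l2 (54883377 to 54888234), had medians of 0.16 to 0.27 in the cKO clones, while Bcl2l2 was at -1.12 to -0.49. Chromosome 2 holds Bcl2l1, Bcl2l11 and Bmf and had medians of 0.18 to 0.27 in the cKO clones, and Bcl2l1 (152780668 to 152831728) was at -1.05 to -0.38. Chromosome 3, which holds Mcl1, had medians of 0.02 to 0.40 in the cKO clones, the direction of Mcl1 itself, which was at 0.01 to 0.57. Chromosome 1, which holds Bok and Bcl2, had medians of -0.18 to -0.03, while Bok was at 3.94 to 5.06 and Bcl2 at -0.27 to 0.77. Chromosome 17, which holds Bak1, had medians of -0.11 to 0.02, while Bak1 was at 0.9986 to 1.91. The Fgfr3-WT clones were spread on this scale as well, for example from -0.32 to 0.43 for chromosome 2. The part of these shifts in the members' levels was not tested.

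In P4M against P28, no member passed the test by edgeR, against 3.34% of all genes higher and 3.88% lower, and none did by DESeq2 or in any alternative fit. Of the 10, 1 had an unadjusted p under 0.05, Bid, with a log2 fold change of 0.78 (95% confidence interval 0.11 to 1.46, edgeR adjusted p = 0.137). The intervals do not show that the ages were alike: that of Bcl2l11 ran from -2.46 to 0.51 and that of Bmf from -2.68 to 0.46. The narrowest was that of Mcl1, from -0.13 to 0.64. The spread within P28 was large for 2 of these genes: the SD of log2 CPM was 1.54 for Bmf and 1.33 for Bcl2l11, higher than that of 95.2% and 93.4% of all genes tested. In contrast Mcl1 had an SD of 0.09 in P28, and in P4M Bcl2 and Bak1 each had 0.07, beside medians over all genes of 0.33 and 0.31.

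The order of the members by median TPM differed between groups. In the Fgfr3-WT clones it was Bad (81.2 TPM), Mcl1 (56.4), Bcl2l1 (41.3), Bcl2l2 (38.1), Bid (25.1), Bak1 (16.7), Bcl2 (4.80), Bok (3.04), Bmf (2.76) and Bcl2l11 (0.730), and the ranges of all neighbours overlapped. In the P28 clones it was Mcl1 (86.2 TPM), Bad (74.3), Bak1 (45.0), Bok (42.3), Bid (41.2), Bcl2l1 (36.5), Bcl2l2 (25.6), Bcl2l11 (11.4), Bcl2 (8.61) and Bmf (2.27). Here the ranges of Mcl1 and Bad, of Bcl2l2 and Bcl2l11, and of Bcl2 and Bmf were separate, and those of the other neighbours overlapped. In the P4M clones it was Mcl1 (95.8 TPM), Bok (70.2), Bad (62.0), Bid (58.4), Bak1 (35.4), Bcl2l1 (31.5), Bcl2l2 (22.3), Bcl2 (8.77), Bcl2l11 (3.43) and Bmf (0.620). Ranges were separate between Bid and Bak1 and at each step from Bcl2l2 downwards. Bok thus stood between Bcl2 and Bmf in the Fgfr3-WT clones and between Mcl1 and Bad in P4M.

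On the TPM scale the median of all genes lay 0.25 log2 units above the Fgfr3-WT clones in P28 and 0.09 above in P4M, and all changes by limma on log2(TPM + 1) are to be read against that shift. With it, Bcl2l1 (-0.30, adjusted p = 0.251), Bcl2l2 (-0.37, adjusted p = 0.180) and Bad (-0.16, adjusted p = 0.497) were not called in P28, and Bcl2 (0.54, adjusted p = 0.0219) and Mcl1 (0.53, adjusted p = 0.0172) were. Of all genes called on that scale in P28, 4595 were higher and 1716 lower, beside 3336 and 3414 by edgeR. Directions against Fgfr3-WT were the same on both scales for all 10 members. Without composition scaling in edgeR, 3800 genes were higher and 2867 lower in P28, and Bcl2l1 (adjusted p = 0.0515) and Bad (adjusted p = 0.0709) missed the threshold while Bcl2 (0.49, adjusted p = 0.0482) passed it. Without a filter on low counts, Bad in P28 also missed it (adjusted p = 0.0793, edgeR).

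The other genes of the mitochondrial pathway were counted from lists, averaged over the cKO groups. Of all genes tested, 23.1% were higher and 25.7% lower in this comparison. Of 17 further BCL2 family genes, 9 were tested, 1 was higher and 5 were lower, with a median log2 fold change of -0.76 beside -0.05 over all genes. The falls with the largest size were those of Bnip3, a hypoxia-induced mitophagy receptor (-1.76, SE 0.326, edgeR adjusted p = 0.000729), Bax (-1.45, SE 0.200) and Bbc3 (-1.08, SE 0.265, adjusted p = 0.00453). The average hides a difference between the ages for Bnip3, which had a log2 fold change of -2.71 in P28 (SE 0.403) and -0.81 in P4M (SE 0.408, edgeR adjusted p = 0.121) and was higher in P4M than in P28 (1.90, SE 0.406, edgeR adjusted p = 0.0171). Pmaip1 was not called on average (-1.38, SE 0.561, edgeR adjusted p = 0.0561), with 1.499 to 28.5 CPM in the Fgfr3-WT clones. It fell by 2.25 in P28 (SE 0.682, edgeR adjusted p = 0.0192). The median of Pmaip1 was 12.3 CPM in the Fgfr3-WT clones, 2.37 CPM in P28 and 9.05 CPM in P4M, so the average hides a difference between the ages here too.

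Downstream of the mitochondrion, 14 genes of the caspases and the apoptosome were tested, of which 2 were higher and 3 lower, with a median log2 fold change of -0.14. For this list and the next, the shares over all genes tested were 23.1% higher and 25.7% lower. Apaf1, the scaffold of the apoptosome, fell by 0.82 (SE 0.207, edgeR adjusted p = 0.00538) on average. Its log2 fold change was -0.32 in P28 (SE 0.240, edgeR adjusted p = 0.303) and -1.32 in P4M (SE 0.262, edgeR adjusted p = 0.00143). Apaf1 was also lower in P4M than in P28 (-0.99, SE 0.260, edgeR adjusted p = 0.0359). Htra2, a protease released from mitochondria, fell by 0.83 (SE 0.118). Of 8 caspase inhibitor genes, 6 were tested, 1 was higher and 2 were lower, with a median of -0.02. The higher one was Birc5 (survivin), which is also a mitotic protein, at 3.46 (SE 0.850, edgeR adjusted p = 0.00461). The lower ones were Naip2, a sensor of bacterial proteins, at -3.56 (SE 0.408, edgeR adjusted p = 2.77e-05), and Birc2 (cIAP1) at -0.84 (SE 0.140). Naip2 belongs to a family of near-identical copies, and the paper counted only reads mapped without ambiguity.

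Upstream of Bid, all 9 genes of the death receptor route passed the test, 2 higher and 7 lower, with a median log2 fold change of -0.65. Over all genes tested, 23.1% were higher and 25.7% lower. By age, 5 of the 9 were lower in P28, against 19.7% of all genes. In P4M 7 were lower and 2 higher, against 23.6% and 22.3%. Fas, a death receptor and itself a known p53 target, was at 35.6 ± 30.5 CPM (n = 5, SD) in the Fgfr3-WT clones, with a lowest of 5.38 and a highest of 83.7 CPM. It was at 3.96 ± 1.79 CPM (n = 5, SD) in P28 and 1.498 ± 0.804 CPM (n = 4, SD) in P4M, a fall of 3.87 log2 units (SE 0.527, edgeR adjusted p = 9.24e-05). Tnfrsf21 (death receptor 6) fell by 2.12 (SE 0.304) on average, by 3.08 in P28 (SE 0.382) and by 1.17 in P4M (SE 0.384), and was higher in P4M than in P28 (1.90, SE 0.379, edgeR adjusted p = 0.0132). Tnfrsf12a, the TWEAK receptor, rose by 1.18 (SE 0.278, edgeR adjusted p = 0.00342). Of 24 partners and regulators of the members, 11 were higher and 6 lower, beside the same shares over all genes, with a median of 0.06. Ddit3 (CHOP), a stress-induced transcription factor, fell by 1.33 (SE 0.298), Dynll2, the light chain that tethers BMF, fell by 1.24 (SE 0.129), and Pim1, a kinase that phosphorylates BAD, rose by 0.93 (SE 0.275, edgeR adjusted p = 0.0128). The voltage-dependent anion channel Vdac2, which binds BAK and was chosen after its value was seen, rose by 0.89 (SE 0.0881, edgeR adjusted p = 9.77e-06).

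**Figure D5:**
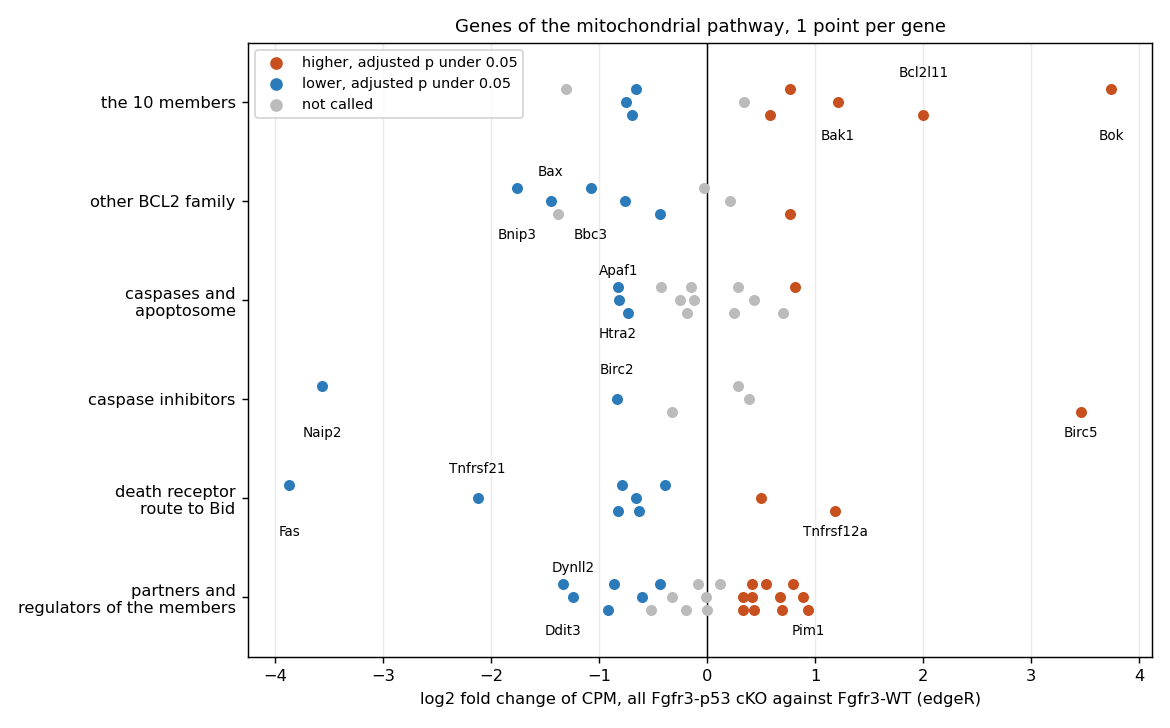
Log2 fold change of the tested genes reported here, all Fgfr3-p53 cKO against Fgfr3-WT, by gene list, coloured by direction where the adjusted p was under 0.05, with up to 3 called genes of each list named. Fas, Naip2 and Tnfrsf21 lie at the low end, and Bok (3.74) and Birc5 (3.46) at the high end.

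The genes most like each member called with both cKO groups averaged were those with the highest Pearson correlation of log2 CPM over the 14 clones, among the 10253 genes whose log2 CPM averaged 3 or more. They were Sinhcaf (r = 0.974) and Timeless (0.955) for Bok, Dera (0.963) and Taf12 (0.960) for Bak1, Galnt18 (0.934) and Prpf6 (0.930) for Bcl2l11, and Tpr (0.932) and Sdk1 (0.930) for Bid. For the members that fell, they were Sfi1 (0.932) and Map9 (0.931) for Bcl2l1, Tmf1 (0.945) and Ppcdc (0.918) for Bcl2l2, and Fam89b (0.942) and Gm50387 (0.940) for Bad. For Bcl2 they were Pex14 (0.928) and Foxq1 (0.928). The clones fall into genotypes that differ in most of these genes and share libraries' depth and the number in the library names, so these values are a description.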

How the data were processed

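The members and gene lists were chosen with earlier results of these data known. Per the labels, RNA of cultured clones was amplified with the SMART-Seq v4 kit, and the submitters' processing notes name FastQC, TopHat, Bowtie2, HTSeq, DESeq2 and the build mm10, without versions. The authors deposited raw read counts per gene, which were used as they are, and TPM values (normalized by length and depth), whose program is not given in the sources used here. The FPKM, expected, depth-normalized and rlog tables were not used.

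Counts were analysed in R 4.3.3 with edgeR 4.0.16: filterByExpr over 3 groups, TMM, and a robust quasi-likelihood fit of 3 group means to all 14 clones, with Benjamini-Hochberg adjustment at an FDR of 0.05. Each number in the library names goes with 1 genotype, so it could not be fitted. The steps were tested on simulated data. Alternatives were DESeq2 1.42.0, limma 3.58.1 on log2(TPM + 1) for genes with a mean of at least 1 TPM, other scalings and filters (at least 10 counts in every clone), fewer groups, a minimum absolute log2 fold change of 1, and each clone left out. Named genes were the members, Trp53, Bax, Bbc3 and Pmaip1, the 3 called genes of largest change in each list whose log2 CPM averaged 3 or more, and the 2 most correlated genes per called member. The result of 1 gene this rule names is not reported here. Totals of 25688946 to 52857424 counts per clone set the precision, and intervals cover the fitted spread between clones. Replicate numbers are running numbers. Coordinates and transcripts are from GENCODE M21 (mm10). Python 3.11.15 and matplotlib 3.10.9 drew the figures.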

Additional observations from a re-analysis of the deposited data

Results flagged for a closer look

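Of 30 checks (10 members in 3 groups), 3 found a clone whose distance to its neighbour was large against the range of its group by Dixon's criterion at 95%, and chance gives about 1 in 20. Bak1 in Fgfr3-WT replicate 1 (9.25 CPM) was the lowest of its group, with a gap of 0.729 of the range of log2 CPM. Bak1 in P28 replicate 5 (86.6 CPM) was the highest of its group, with a gap of 0.727. Bok in P4M replicate 1 (36.7 CPM) was the lowest of its group, with a gap of 0.840. Leaving out any 1 of these clones kept both genes called as higher in both cKO groups.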

How the results depend on the processing

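With a minimum absolute log2 fold change of 1, the called members were 3 in P28, 3 in P4M and 3 with both cKO groups averaged, and the called genes were 4040, 5149 and 4723. With 1 clone left out, called members ranged from 5 to 6 in P28, from 7 to 9 in P4M, from 7 to 9 with both averaged, and stayed at 0 in P4M against P28, where called genes ranged from 480 to 2132 around 1254. That count was 3051 with only these groups fitted and 2814 with DESeq2. In P4M against P28, Bcl2l2 changed sign without composition scaling (-0.0575), with at least 10 counts in every clone (-0.00787) and by limma on TPM (-0.253), and with 1 clone left out Bcl2l2 ranged from -0.0422 to 0.132 and Bcl2l1 from -0.124 to 0.0550. As shares of summed counts, which favour long genes, Bcl2 held 7.51, 10.5 and 12.3% in Fgfr3-WT, P28 and P4M, Bcl2l1 22.7, 15.8 and 13.5%, and Mcl1 58.0% in P28. In P4M against P28, 299 genes were higher and 982 lower by limma on TPM and 400 and 805 without scaling, beside 580 and 674. Averaged over the cKO groups, limma on TPM gave 4751 higher and 2516 lower, beside 4014 and 4453, and in P4M 3898 and 2696, beside 3873 and 4096. With only the compared groups fitted, Mcl1 in P4M missed the threshold (edgeR adjusted p = 0.104). With all cKO clones pooled into 1 group, Bid against Fgfr3-WT missed it (edgeR adjusted p = 0.0661). By limma on TPM, Bcl2l1 in P4M (0.0555) missed it, as did Bcl2l1 (0.0667) and Bad (0.0745) averaged over the cKO groups. Bok was not tested with at least 10 counts in every clone. The cause of these differences was not tested. No paired analysis was possible because the labels give no shared replicate numbers. Depth limits Bok in Fgfr3-WT replicates 2 and 3.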
